A study of Mus musculus with 2 samples.

Results

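The 8 genes described here act where a phagocyte meets a dying cell. They are the TAM receptor kinases Mertk, Axl and Tyro3, their bridging ligands Gas6 and Pros1, the bridging protein Mfge8, and the receptors Timd4 and Stab1. They were taken by symbol from the 32285 genes of the deposited matrix, and all 8 were found. The matrix comes from nuclei of frozen mouse liver with hepatocellular carcinoma (HCC), profiled on the 10x Genomics droplet platform to describe residual tumour that had been dissected out. The labels list 2 samples of 1 group, named MRD-HCC after minimal residual disease, and give no treatment, genotype, strain or age. The barcodes of the 1 matrix name no sample, so it may stem from a single sample or from both. It was read as 1 sample, no value has a replicate, and no test was run. The comparisons are between classes of nuclei within this matrix, and each class with free RNA.

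TAM receptors do not touch the dying cell directly. Gas6 and protein S, the product of Pros1, bind the phosphatidylserine it exposes and bridge it to the receptor, and Mfge8 does the same for alpha-v integrins. Timd4 and Stab1 bind phosphatidylserine themselves. In mouse liver Mertk and Timd4 are known from Kupffer cells, the resident macrophages, Stab1 from sinusoidal endothelium, and protein S as an anticoagulant that hepatocytes release into plasma.

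Nuclei were sorted into classes by marker genes, none of which is among the 8. A nucleus held a marker when it had at least 1 unique molecular identifier (UMI) of it and a level at least 2 times that of free RNA, and it entered a class when it held at least 3 markers of that class and passed no other gate. Free RNA, the background that droplets without a nucleus hold, was read from 49929 uncalled barcodes. A nucleus may hold only a share of it. Haemoglobin RNA reached from 11.1% of its free RNA level in hepatocyte nuclei to 73.4% in B cell nuclei. A level near or below free RNA therefore does not by itself show that a gene is absent. Of 16411 filtered nuclei, 7327 passed 1 gate, 6375 passed none and 2709 passed several. The classes were Kupffer (87 nuclei), other macrophage (271), endothelial (770), stellate (366), fibroblast (386), tumour (2626) and hepatocyte (2340), and also ductal (237), mesothelial (50), pericyte or smooth muscle (49), T cell (56) and B cell (34). Median depth ran from 1911 UMIs in B cell nuclei to 9190.5 UMIs in hepatocyte nuclei, and was 2804 UMIs in Kupffer and 5800.5 UMIs in tumour nuclei. The class names stand for the gates, and no annotation of the nuclei by the authors was used. All markers of the gate stood at least 2-fold above free RNA in Kupffer (8 of 8), other macrophage (10 of 10), endothelial (12 of 12), stellate (9 of 9) and fibroblast nuclei (9 of 9). The gates chose nuclei by these same markers, so such counts do not test the class names. In tumour nuclei 7 of 9 markers of the gate led by Gpc3 and 8 of 8 of that led by Ahnak2 stood that high. In hepatocyte nuclei 5 of 9 did, and all 9 summed to 11911 CPM, against 12545 CPM in free RNA. The reason for the lower count was not tested.

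Levels are a class's summed UMIs of a gene per 1000000 UMIs (CPM), folds are ratios of CPM, and brackets hold exact 95% intervals, which cover counting error within the pooled nuclei only. On GRCm38, the same build as mm10, Mertk spans chr2:128698956-128802894 on the plus strand, Timd4 chr11:46810800-46844332 (plus) and Stab1 chr14:31139013-31168641 (minus). Axl lies at chr7:25757273-25788705 (minus), Tyro3 at chr2:119797733-119818104 (plus), Gas6 at chr8:13465374-13494490 (minus), Pros1 at chr16:62854307-62929346 (plus) and Mfge8 at chr7:79133768-79149060 (minus). Their promoters are shown because these 3 genes are the ones used here to describe macrophage nuclei. Each is the 250 bases before the RefSeq start on GRCm38.p6, in the direction of the gene, at chr2:128698665-128698914, chr11:46810549-46810798 and chr14:31168642-31168891. Capitals mark a match to a motif of PU.1, a transcription factor of macrophages, or of PU.1 with an IRF factor. Both motifs were chosen after the sequences had been seen.
Mertk: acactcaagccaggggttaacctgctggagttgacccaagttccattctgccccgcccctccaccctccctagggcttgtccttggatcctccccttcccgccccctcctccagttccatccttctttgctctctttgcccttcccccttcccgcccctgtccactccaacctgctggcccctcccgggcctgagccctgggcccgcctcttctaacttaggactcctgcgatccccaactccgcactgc
Timd4: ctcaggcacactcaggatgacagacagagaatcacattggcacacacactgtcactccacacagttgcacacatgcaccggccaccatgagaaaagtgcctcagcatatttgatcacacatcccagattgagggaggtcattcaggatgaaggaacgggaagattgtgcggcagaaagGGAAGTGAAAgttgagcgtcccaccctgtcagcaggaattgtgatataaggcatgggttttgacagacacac
Stab1: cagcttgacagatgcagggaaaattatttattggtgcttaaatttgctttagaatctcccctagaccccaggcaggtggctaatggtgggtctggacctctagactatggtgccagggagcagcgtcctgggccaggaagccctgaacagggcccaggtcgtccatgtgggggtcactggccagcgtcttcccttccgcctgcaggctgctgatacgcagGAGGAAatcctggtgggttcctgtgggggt
Both strands were searched. The composite motif, GGAA, any 2 bases and GAAA, lay 72 bases before the Timd4 start, and 2.301% of the 32851 promoters of the RefSeq table hold it. The PU.1 core GAGGAA lay 30 bases before the Stab1 start, and 23.25% of all promoters hold it. The core also lay, on the opposite strand, 130 bases before the Axl start and 220 bases before the Mfge8 start. Neither was found in the Mertk window. A match is a run of letters and not a measured binding site.

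Mertk, the TAM receptor best known from macrophages, was highest in Kupffer nuclei. Kupffer nuclei held 549 UMIs, which is 1274 CPM (1169.7 to 1385), and other macrophage nuclei 404 CPM (364 to 446), while free RNA held 47.0 CPM (44.7 to 49.4). These are 27.1-fold (24.5 to 29.9) and 8.59-fold (7.66 to 9.61) above free RNA, and Kupffer nuclei stood 3.16-fold (2.76 to 3.61) above other macrophage nuclei. With free RNA from barcodes of 1 to 100 UMIs the Kupffer fold was 16.6. Below the macrophages came stellate nuclei at 196 CPM, pericyte or smooth muscle nuclei at 190.1 CPM, fibroblast nuclei at 149.6 CPM and endothelial nuclei at 132 CPM. All 4 stood above free RNA, by 4.18-fold, 4.04-fold, 3.18-fold and 2.82-fold, but no neighbours among them could be told apart, since each interval of their ratio included 1. Mesothelial nuclei followed at 76.5 CPM, on 13 UMIs. Hepatocyte nuclei at 51.0 CPM (48.3 to 53.8) and tumour nuclei at 40.7 CPM (37.9 to 43.8) lay near the full free RNA level. At the share that haemoglobin RNA reached in them, free RNA would give only 5.20 CPM and 7.94 CPM of Mertk. Ductal nuclei at 23.4 CPM, B cell nuclei at 26.1 CPM and T cell nuclei at 16.0 CPM were the lowest. The signal in Kupffer nuclei came from many of them: 63 of 87 had a Mertk UMI, and the nucleus with the most, 35 UMIs, gave 6.38% of the class's total.

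**Figure D1:**
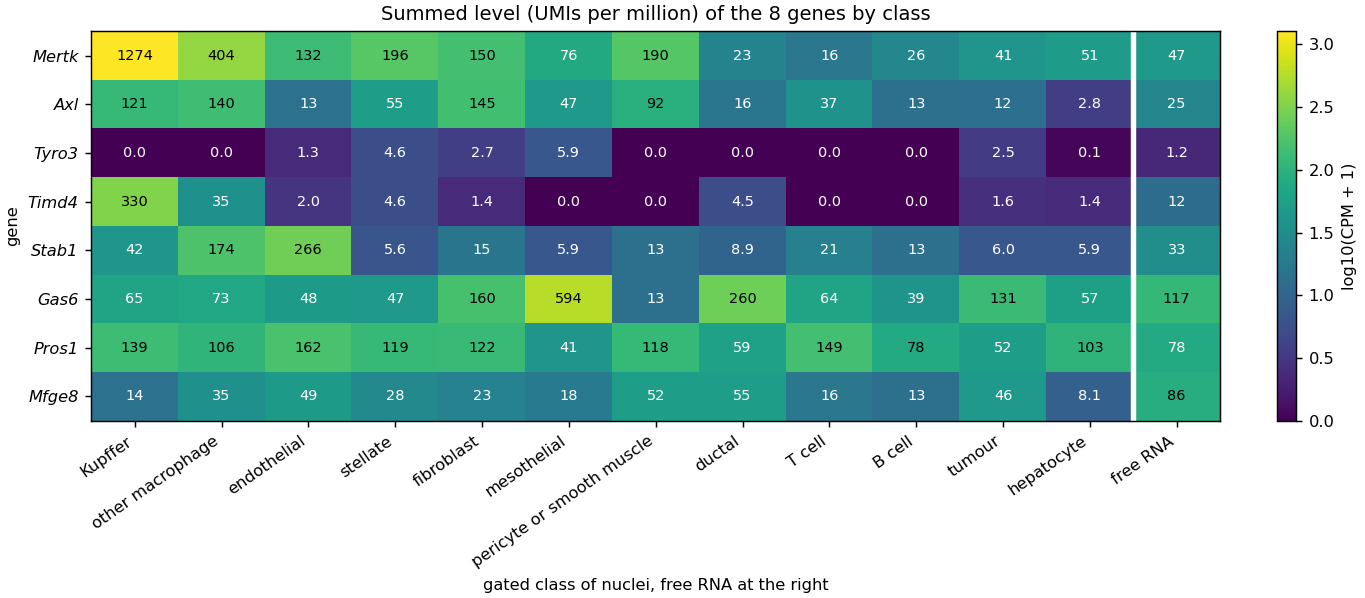
Summed level of each of the 8 genes (rows) in the 12 gated classes and, at the right, in free RNA (columns), in CPM with colour on a log10 scale after adding 1. Mertk and Timd4 are brightest in Kupffer nuclei at 1274 and 330 CPM, Stab1 in endothelial nuclei at 266 CPM, and Gas6 in mesothelial nuclei at 594 CPM.

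Some markers of other cells stood at least 2-fold above free RNA in the Kupffer class. Of the 7 B cell markers 1, Bank1, stood at least 2-fold above free RNA, at 638 CPM, and the B cell markers Cd79a, Cd79b and Ms4a1 were at 0. Of the 12 endothelial markers 2 did, and all 12 summed to 360 CPM (359.7) in Kupffer nuclei, against 455 CPM in free RNA. So did 1 of 5 dendritic cell markers (sum 51.1 CPM in Kupffer nuclei, against 20.8 CPM in free RNA), 1 of 5 neutrophil markers, 1 of 6 mesothelial markers and 1 of the 9 markers of the tumour gate led by Gpc3. The part of these markers in the Kupffer values was not tested. Summed hepatocyte markers stood at 5469.7 CPM in Kupffer nuclei, against 12545 CPM in free RNA. The 8 Kupffer markers summed to 465.7 CPM in hepatocyte nuclei, against 358.9 CPM in free RNA, and 1 of them stood at least 2-fold above free RNA there. Of the 60 Kupffer nuclei with at least 2000 UMIs, Scrublet called 0 doublets.

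Over the other macrophage and Kupffer classes together, Mertk was higher where 3 or more of the 8 Kupffer markers were held. Nuclei with 0, 1 or 2 are the other macrophage class, and those with 3 or more are the Kupffer class. The Kupffer gate asked for no marker of the macrophage list, so the steps join 2 gates and are not a gradient within 1 class. It stood at 373 CPM in the 174 nuclei with 0 Kupffer markers, 489 CPM in the 74 with 1, 412 CPM in the 23 with 2, 749.6 CPM in the 43 with 3, and 1516 CPM in the 44 with 4 or more. Nuclei with 4 or more stood 4.07-fold (3.47 to 4.78) above those with 0. Timd4 stood at 35.6, 39.6, 13.3, 184 and 397 CPM over the same steps, and was 11.2-fold (7.09 to 18.3) higher with 4 or more than with 0. Stab1 was lower with 3 or more markers, at 159, 185, 266, 58.8 and 33.9 CPM, and its level with 4 or more was 0.213-fold (0.0991 to 0.408) that with 0. Axl did not differ along the steps beyond counting error, at 0.891-fold (0.591 to 1.32) with 4 or more against 0. Pros1 was 1.58-fold (1.07 to 2.31) higher with 4 or more than with 0, and Mfge8 was 0.286-fold (0.055 to 0.947) on 3 and 23 UMIs. Median depth was 2856, 2610, 2129, 1901 and 4128.5 UMIs over these steps, and its part in the differences was not tested.

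Endothelial Mertk followed sinusoidal markers. In the 236 endothelial nuclei with a UMI of at least 2 of the 5 markers Flt4, Clec4g, Dnase1l3, Lyve1 and F8, Mertk stood at 249 CPM (249.5), against 58.8 CPM in the 244 nuclei with none, a 4.24-fold (3.14 to 5.81) difference. In the 290 nuclei with 1 such marker it stood at 92.3 CPM. Nuclei with 2 or more were also 1.40-fold (1.17 to 1.68) higher in Stab1 and 10.1-fold (8.41 to 12.3) higher in Stab2, its paralogue on sinusoidal endothelium. Mrc1, a mannose receptor of sinusoidal endothelium and macrophages, was 15.8-fold (10.2 to 25.9) higher. Clec4f, a Kupffer lectin, stood at 7.34 CPM with 2 or more and 13.1 CPM with none, on 7 and 12 UMIs, against 46.9 CPM in free RNA, and Timd4 had 2 and 0 UMIs. The part of Kupffer RNA in the Mertk difference was not tested. Pros1 differed less, 1.26-fold (1.01 to 1.58). Median depth was 3294 UMIs with 2 or more and 3389 UMIs with none.

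**Figure D2:**
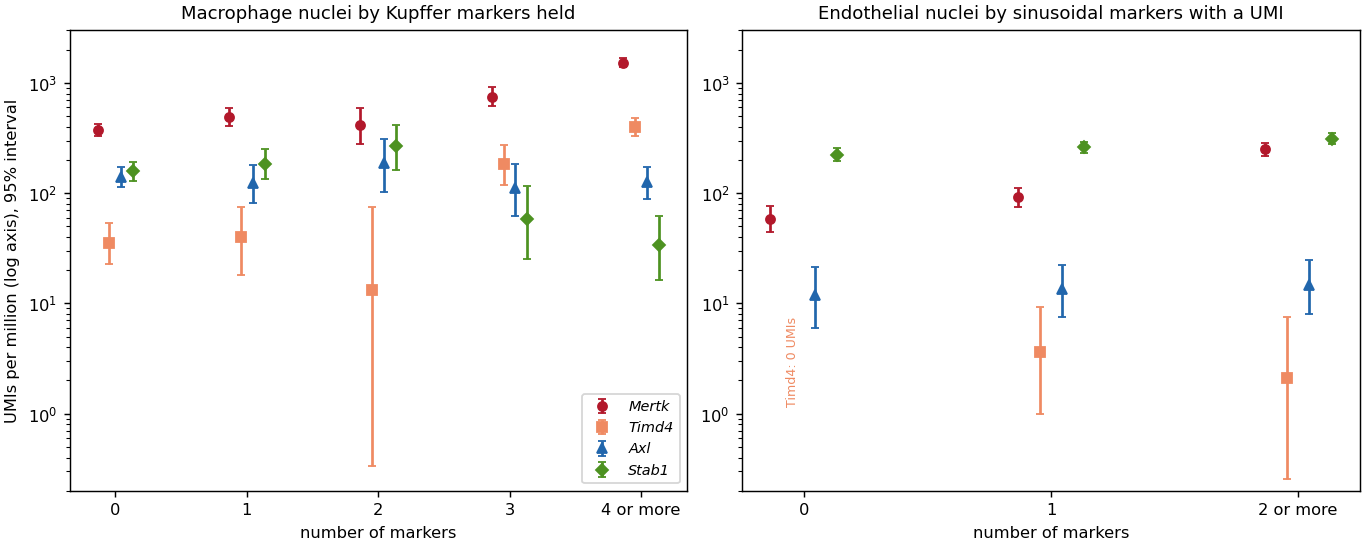
Level in CPM (log axis, bars are 95% counting intervals) of Mertk, Timd4, Axl and Stab1 in macrophage nuclei by the number of Kupffer markers held (left) and in endothelial nuclei by the number of sinusoidal markers with a UMI (right). Mertk and Timd4 stand highest at the right of the macrophage panel, at 1516 and 397 CPM, where Stab1 stands lowest at 33.9 CPM.

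Axl, the TAM receptor that Gas6 activates, had another distribution. Fibroblast nuclei at 145 CPM (126 to 166), other macrophage nuclei at 140.2 CPM (117 to 166) and Kupffer nuclei at 121 CPM (90.1 to 158) stood 5.88-fold, 5.69-fold and 4.90-fold above free RNA at 24.6 CPM. These 3 classes did not differ beyond counting error, the ratio of fibroblast to other macrophage nuclei being 1.03 (0.828 to 1.29). Pericyte or smooth muscle nuclei followed at 91.8 CPM and stellate nuclei at 54.6 CPM. Stellate nuclei stood 2.22-fold (1.67 to 2.89) above free RNA, a fold of 1.79 with free RNA from barcodes of 1 to 100 UMIs. Stellate nuclei held 0.377-fold (0.278 to 0.506) the Axl of fibroblast nuclei, while their Mertk was 1.31-fold (1.08 to 1.59) higher. The 2 gates overlap in what they catch: 4 of 9 fibroblast markers stood at least 2-fold above free RNA in stellate nuclei, and 5 of 9 stellate markers in fibroblast nuclei. The 187 nuclei that passed both gates held Axl at 75.0 CPM, between the classes. Mesothelial nuclei stood at 47.1 CPM, T cell nuclei at 37.2 CPM, ductal nuclei at 15.6 CPM and B cell nuclei at 13.1 CPM, on 1 UMI. Endothelial nuclei at 13.4 CPM and tumour nuclei at 12.5 CPM stood below free RNA, and hepatocyte nuclei were lowest at 2.79 CPM (2.19 to 3.51). In fibroblast nuclei 0 of 10 macrophage markers stood at least 2-fold above free RNA, and their sum was 85.0 CPM, against 254 CPM in free RNA. Nuclei that also passed a macrophage gate had been left out, which lowers this sum. The part of macrophage RNA in the Axl of fibroblast nuclei was not tested.

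Tyro3, the TAM receptor known from the nervous system, was scarce everywhere, with 62 UMIs over all gated nuclei. Of these, 45 lay in tumour nuclei, or 72.6%, and tumour nuclei held 34.1% of all gated UMIs. They stood at 2.49 CPM (1.82 to 3.34) against 1.22 CPM (0.877 to 1.66) in free RNA, a 2.04-fold (1.31 to 3.20) difference. That fold fell under 2 in 7 of 11 other settings. Stellate nuclei stood higher, at 4.63 CPM on 5 UMIs, or 3.79-fold (1.17 to 9.59) above free RNA. The lowest stellate fold over the other settings was 1.62. Fibroblast nuclei stood at 2.72 CPM and endothelial nuclei at 1.34 CPM, on 4 UMIs each. Mesothelial nuclei stood at 5.88 CPM on 1 UMI and hepatocyte nuclei at 0.113 CPM on 3. Ductal, pericyte or smooth muscle, T cell and B cell nuclei held 0. Kupffer and other macrophage nuclei held 0 UMIs, and 3 counts would be 6.96 CPM and 3.16 CPM in those classes, above the free RNA level, so Tyro3 was not detectable in macrophages at this depth. Neighbouring classes could not be told apart except endothelial from hepatocyte nuclei, at 11.9-fold (2.01 to 81.0) on 4 and 3 UMIs.

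**Figure D3:**
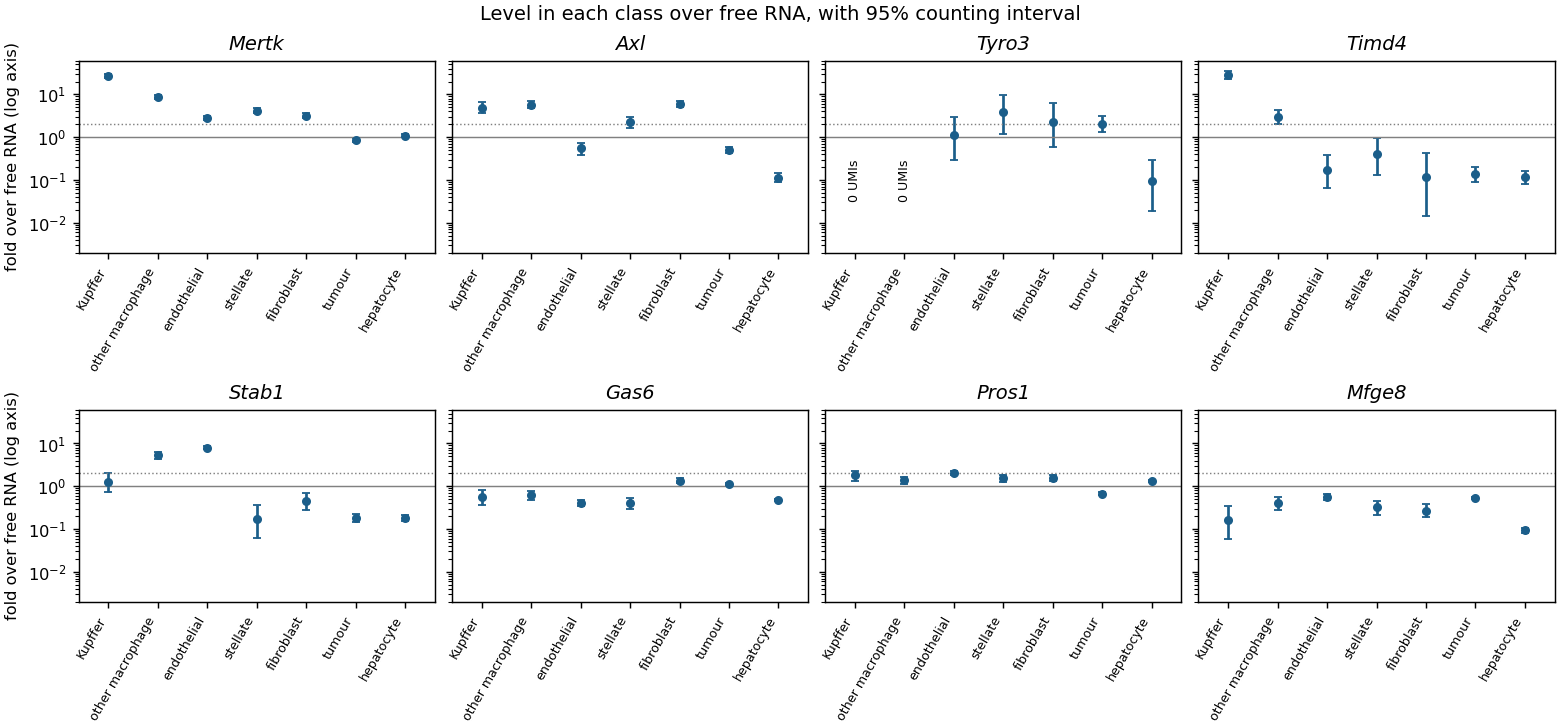
Level in each of 7 classes over free RNA (log axis, dots with 95% counting intervals, solid line at 1 and dotted line at 2), 1 panel per gene. Mertk lies above the dotted line in 5 classes and Timd4 in both macrophage classes, while Mfge8 lies below the solid line throughout.

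Of the ligands, Gas6 was highest in mesothelial nuclei. They held 594 CPM (484 to 722), or 5.07-fold (4.12 to 6.18) above free RNA at 117 CPM, in 41 of 50 nuclei. Ductal nuclei at 260.5 CPM (228 to 296) stood 2.22-fold (1.94 to 2.54) above free RNA. Fibroblast nuclei followed at 159.8 CPM and tumour nuclei at 131 CPM. The ratio of each of these classes to the next was above counting error, the smallest being fibroblast over tumour nuclei at 1.22-fold (1.06 to 1.39). Tumour nuclei stood only 1.12-fold (1.07 to 1.18) above free RNA. They held 2370 of the 4755 gated Gas6 UMIs, or 49.8%, and 34.1% of all gated UMIs. Other macrophage, Kupffer, hepatocyte, endothelial and stellate nuclei lay between 72.7 and 47.2 CPM, all below free RNA, and no neighbours among them differed beyond counting error. T cell nuclei stood at 63.8 CPM, B cell nuclei at 39.2 CPM on 3 UMIs and pericyte or smooth muscle nuclei at 13.1 CPM on 2 UMIs. Mesothelial nuclei carried 3 of 9 fibroblast markers and 2 of 9 ductal markers at least 2-fold above free RNA, and the part of these in their Gas6 was not tested. Ductal nuclei carried 4 of 9 markers of the tumour gate led by Gpc3 that high, and 3 of 8 of that led by Ahnak2. The 2 lists summed to 4874 and 4036 CPM in ductal nuclei, 6698 and 5415 CPM in tumour nuclei and 1253 and 685 CPM in free RNA. The part of tumour nuclei in the ductal Gas6 was not tested.

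Pros1 was spread most evenly. Its levels ran from 41.2 CPM in mesothelial nuclei to 162 CPM (147.5 to 177) in endothelial nuclei, and no neighbours in this order could be told apart. Endothelial nuclei stood 2.08-fold (1.88 to 2.29) above free RNA at 77.7 CPM, and this was the 1 class past 2-fold. The fold was 1.96 with nuclei of several gates included and 1.59 with classes from clusters. T cell nuclei stood at 149 CPM, Kupffer nuclei at 139 CPM (106 to 179), fibroblast nuclei at 122 CPM, stellate nuclei at 119 CPM (118.5), other macrophage nuclei at 106 CPM and hepatocyte nuclei at 103 CPM (98.9 to 107). Tumour nuclei were lower, at 52.4 CPM (49.2 to 55.9), or 0.675-fold (0.626 to 0.727) free RNA. Hepatocyte nuclei held 2722 of the 4730 gated Pros1 UMIs, or 57.5%, and 50.1% of all gated UMIs. Pericyte or smooth muscle nuclei stood at 118 CPM, B cell nuclei at 78.4 CPM and ductal nuclei at 59.0 CPM. Gas6 and Pros1 ranked the classes in different orders, with Pearson's r = -0.68 over the 12 classes on log2(CPM + 1), a description of points that share 1 library.

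Mfge8 was the 1 gene that no class held above the full free RNA level, of which a nucleus may hold only a share. Free RNA stood at 85.6 CPM (82.5 to 88.8), all filtered nuclei together at 30.4 CPM (29.3 to 31.6), or 0.355-fold (0.337 to 0.375), and ductal nuclei, the highest class, at 54.5 CPM (40.3 to 72.1). Of the 8 genes 1, Mfge8, stood at least 2-fold lower in all nuclei than in free RNA, where 7.43% of 20169 genes did. Among classes, endothelial nuclei at 48.7 CPM and tumour nuclei at 45.6 CPM led the large ones, and pericyte or smooth muscle nuclei stood at 52.4 CPM. Other macrophage nuclei stood at 34.8 CPM, stellate nuclei at 27.8 CPM, fibroblast nuclei at 23.1 CPM and Kupffer nuclei at 13.9 CPM, the last on 6 UMIs. Mesothelial, T cell and B cell nuclei lay between 17.7 and 13.1 CPM on 3 UMIs or fewer, and hepatocyte nuclei were lowest at 8.08 CPM (7.03 to 9.24).

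Timd4, a phosphatidylserine receptor that tethers dying cells to the macrophage, was found mostly in Kupffer nuclei. Its level was 330 CPM (278 to 388) in Kupffer nuclei and 34.8 CPM (23.9 to 48.9) in other macrophage nuclei, against 11.5 CPM (10.4 to 12.7) in free RNA. Kupffer nuclei were 28.6-fold (23.4 to 34.7) above free RNA and 9.47-fold (6.45 to 14.3) above other macrophage nuclei. They held 142 of the 257 gated UMIs, or 55.3%, though only 1.20% of the gated nuclei. In endothelial, stellate, fibroblast, tumour, ductal and hepatocyte nuclei Timd4 lay between 1.36 and 4.63 CPM, below free RNA, and it had 0 UMIs in mesothelial, pericyte or smooth muscle, T cell and B cell nuclei. The 33 UMIs of the other macrophage class came from 17 of 271 nuclei, 6 of them from 1 nucleus, and its 3.02-fold (2.05 to 4.31) excess over free RNA was 1.03-fold among the 73 such nuclei with at most 1% mitochondrial UMIs.

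Within Kupffer nuclei 63 of 87 held a Mertk UMI, 50 a Timd4 UMI and 44 both. Mertk stood at 1385 CPM (1261 to 1519) in the 50 nuclei with Timd4, against 920.5 CPM (745 to 1125) in the 37 without, but median depth was 3737.5 and 1646 UMIs in these subsets. Within the other macrophage class, 84 nuclei held a Stab1 UMI, 17 a Timd4 UMI and 2 both. Nuclei with Stab1 held Timd4 at 4.82 CPM (0.584 to 17.4), against 58.0 CPM (39.4 to 82.4) in those without.

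Stab1, a scavenger receptor of sinusoidal endothelium and some macrophages, was highest in endothelial nuclei. It stood there at 266 CPM (248 to 285), in other macrophage nuclei at 174 CPM (148 to 203) and in Kupffer nuclei at 41.8 CPM (24.8 to 66.0), while free RNA held 33.1 CPM. Endothelial nuclei were 8.04-fold (7.33 to 8.81) and other macrophage nuclei 5.25-fold (4.43 to 6.19) above free RNA. Kupffer nuclei did not differ from free RNA beyond counting error, at 1.26-fold (0.745 to 2.00), and held 0.240-fold (0.139 to 0.392) the Stab1 of other macrophage nuclei. All further classes stood below free RNA, at 5.56 to 21.3 CPM. Of the 12 endothelial markers 0 stood at least 2-fold above free RNA in other macrophage nuclei. They summed to 189.7 CPM (189.73) there, against 455 CPM in free RNA. Nuclei that also passed the endothelial gate had been left out, which lowers this sum. The part of endothelial RNA in the Stab1 of other macrophage nuclei was not tested. The 18 nuclei that passed both the Kupffer and the endothelial gate were left out of both classes and held Stab1 at 138 CPM and Timd4 at 484 CPM (484.5).

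Shares of nuclei with a UMI were set side by side after thinning every nucleus to 2000 UMIs, which leaves out shallower nuclei (27 of 87 Kupffer, 78 of 271 other macrophage). Mertk was then seen in 75% (62.1 to 85.3) of Kupffer nuclei, 40.9% (33.9 to 48.2) of other macrophage, 32.3% of stellate, 22.1% of fibroblast and 16.8% of endothelial nuclei. Hepatocyte and tumour nuclei showed it in 9.14% and 6.70%, and T cell nuclei in 0 of 29. By the limit of 3 counts this allows a share of nuclei with a UMI of up to 10.3%. As counted, without thinning, the shares were 72.4% of Kupffer, 45.4% of other macrophage and 31.4% of hepatocyte nuclei. Timd4 was seen in 55% (41.6 to 67.9) of Kupffer and 4.66% (2.15 to 8.67) of other macrophage nuclei after thinning, against 0.324% (0.105 to 0.755) of hepatocyte nuclei, which are not known to make it. Stab1 was seen in 38.8% of endothelial, 25.9% of other macrophage and 6.67% of Kupffer nuclei, against 1.23% of hepatocyte nuclei. Axl was seen in 30% of Kupffer, 27.3% of fibroblast and 21.8% of other macrophage nuclei, against 0.648% of hepatocyte nuclei. Gas6 was seen in 69.0% of mesothelial, 39.7% of ductal, 24.8% of fibroblast and 22.3% of tumour nuclei, against 11.3% of hepatocyte nuclei.

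**Figure D4:**
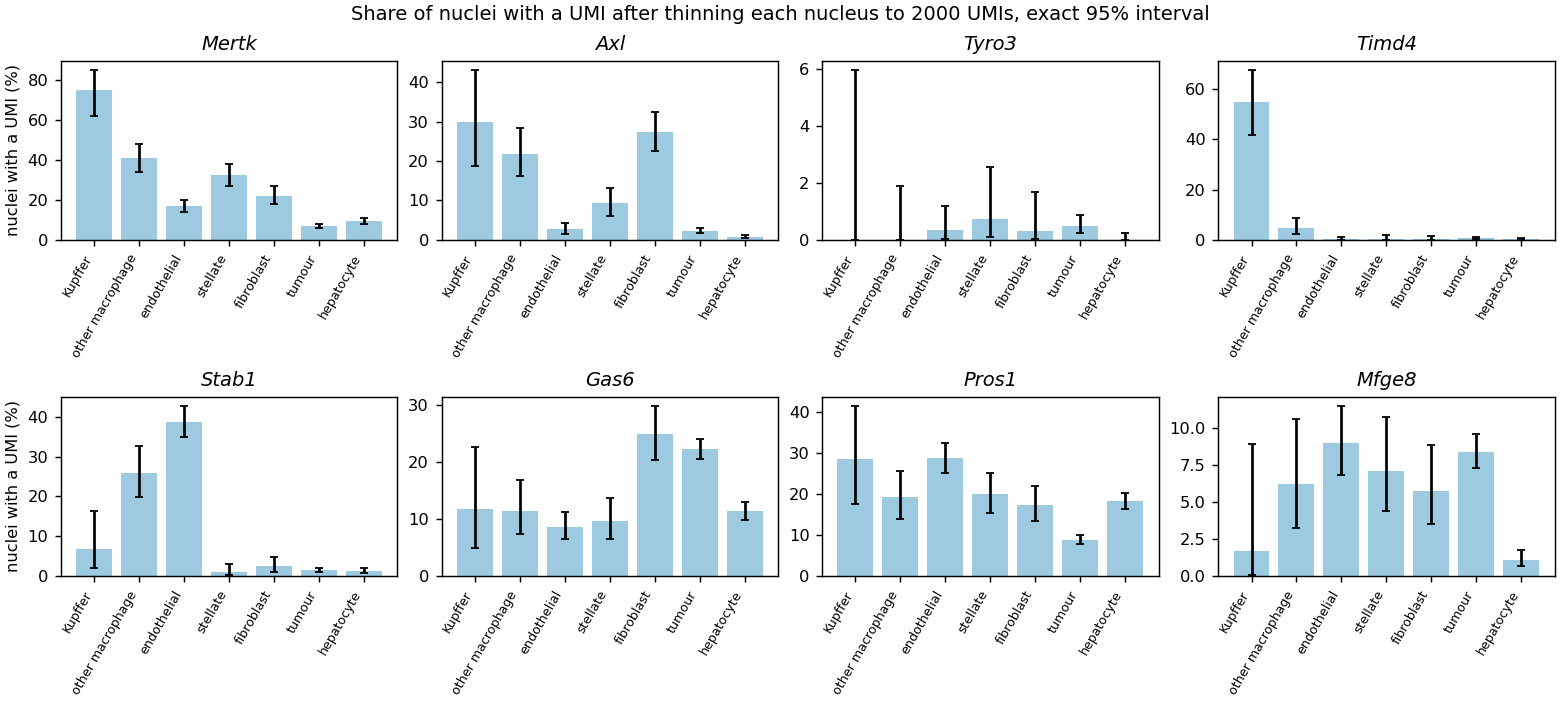
Share of nuclei with a UMI of each gene (percent, bars with exact 95% intervals) after thinning each nucleus to 2000 UMIs, for 7 classes with 1 panel per gene and its own scale. The Kupffer bar reaches 75% for Mertk and 55% for Timd4, against 9.14% and 0.324% in hepatocyte nuclei.

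Tumour nuclei were set against hepatocyte nuclei, the parenchymal cells of the same tissue. Of the 8 genes 4 were at least 2-fold higher in tumour nuclei, where 25.9% of 16975 genes were, and 0 were at least 2-fold lower, where 13.7% of genes were. Axl stood at 12.5 CPM in tumour and 2.79 CPM in hepatocyte nuclei (4.46-fold, 3.42 to 5.89). Mfge8 stood at 45.6 CPM in tumour and 8.08 CPM in hepatocyte nuclei (5.65-fold, 4.85 to 6.59), and Gas6 at 131 and 56.9 CPM (2.31-fold, 2.16 to 2.46). Tyro3 had 45 UMIs in tumour and 3 in hepatocyte nuclei (22.0-fold, 7.07 to 110.8). Both Axl and Mfge8 stood below the full free RNA level in tumour nuclei, at 0.506-fold and 0.533-fold. Pros1 was lower in tumour nuclei, at 0.510-fold (0.473 to 0.550), and Mertk a little lower, at 0.799-fold (0.729 to 0.875). Timd4 and Stab1 did not differ beyond counting error, at 1.18-fold (0.699 to 1.98) and 1.01-fold (0.783 to 1.30). Haemoglobin RNA, which these nuclei should hold only as free RNA, reached 16.9% of its free RNA level in tumour and 11.1% in hepatocyte nuclei. At those shares free RNA would give 4.16 CPM of Axl in tumour and 2.73 CPM in hepatocyte nuclei, 14.5 CPM and 9.47 CPM of Mfge8, and 0.206 CPM and 0.135 CPM of Tyro3. The measured hepatocyte levels of Axl (2.79 CPM), Mfge8 (8.08 CPM) and Tyro3 (0.113 CPM) were close to or under these. Their folds thus have a denominator at the level that this share of free RNA would give. Hepatocyte levels of Mertk, Gas6 and Pros1 were 9.81-fold, 4.39-fold and 11.9-fold what that share would give. Tumour levels of Mertk, Gas6 and Pros1 were 5.13-fold, 6.64-fold and 3.99-fold what the tumour share would give.

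**Figure D5:**
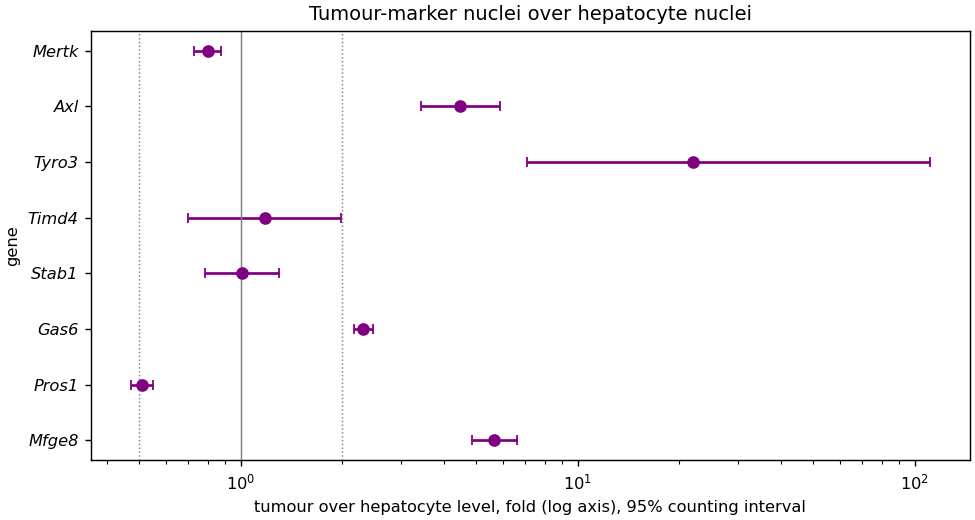
Level in tumour nuclei over that in hepatocyte nuclei for the 8 genes (log axis, dots with 95% counting intervals, solid line at 1 and dotted lines at 2-fold either way). Axl, Tyro3, Gas6 and Mfge8 lie to the right of 2, and Pros1 at 0.510 lies closest to 2-fold lower.

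The 2 tumour gates did not hold the genes alike. Nuclei that passed only the gate led by Ahnak2 (1105) stood 3.33-fold (2.08 to 5.61) above those that passed only the gate led by Gpc3 (651) in Axl and 1.87-fold (1.51 to 2.32) in Mfge8. Their Pros1 was 0.513-fold (0.437 to 0.603), at 44.9 against 87.5 CPM. Gas6 differed by less than counting error, at 128 and 131 CPM (0.980-fold), and Mertk did not differ beyond it (1.21-fold, 0.995 to 1.48). Median depth was 5794 and 3801 UMIs in these subsets. The 1166 nuclei that passed both a tumour and the ductal gate were left out of the tumour class.

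Over all classes, the count of the 8 genes at least 2-fold above free RNA was read against the same count over all genes tested. It was 3 in Kupffer nuclei (Mertk, Axl, Timd4), where 24.8% of 16393 genes were. It was 4 in other macrophage nuclei (these 3 and Stab1) against 24.4% of genes, and 3 in endothelial nuclei (Mertk, Pros1, Stab1) against 22.0%. Stellate and fibroblast nuclei each had 3 (Mertk, Axl, Tyro3) against 19.3% and 24.8%, and the fibroblast interval of Tyro3, on 4 UMIs, included 1. Tumour nuclei had 1 (Tyro3) against 28.6%, ductal nuclei 1 (Gas6) against 26.8%, and hepatocyte nuclei 0 against 20.3%. Mesothelial nuclei had 2 (Gas6, and Tyro3 on 1 UMI) against 23.1%, pericyte or smooth muscle nuclei 2 (Mertk, Axl) against 23.5%, and T cell and B cell nuclei 0 against 23.6% and 22.9%. A gene was counted as lower only where its fold was 0.5 or less and the interval lay below 1, so that genes with too few UMIs were not counted. There was 1 in Kupffer nuclei (Mfge8), against 6.88% of genes, and 1 in other macrophage nuclei (Mfge8), against 7.06%. There were 2 in endothelial nuclei (Gas6, Timd4) against 14.4%, 4 in stellate nuclei (Gas6, Mfge8, Timd4, Stab1) against 12.8%, 3 in fibroblast nuclei (Mfge8, Timd4, Stab1) against 15.2% and 2 in tumour nuclei (Timd4, Stab1) against 18.8%. Ductal nuclei had 3 (Mertk, Timd4, Stab1) against 9.68%, mesothelial nuclei 2 (Mfge8, Stab1) against 7.34%, and pericyte or smooth muscle nuclei 1 (Gas6) against 5.82%. T cell nuclei had 2 (Mertk, Mfge8) against 4.16% and B cell nuclei 2 (Gas6, Mfge8) against 1.99%. Hepatocyte nuclei had 6, all but Mertk and Pros1, against 28.0% of genes. The median difference in log2(CPM + 1) of the 8 genes was 0.58 in Kupffer nuclei, beside 0.20 over all genes. It was 0.98 beside 0.21 in other macrophage, 0.55 beside 0.13 in fibroblast and -1.66 beside 0.06 in hepatocyte nuclei. In endothelial, stellate and tumour nuclei it was -0.36, -0.28 and -0.73, beside 0.07, 0.002 and 0.31.

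Further genes of dead cell uptake came from a list of 42, with receptors, opsonins, engulfment adaptors and lipid efflux genes. In Kupffer nuclei 16 of 41 tested stood at least 2-fold above free RNA, against 24.8% of all genes, and 2 were lower by the rule with the interval, against 6.88%. The highest were the phosphatidylserine receptors Cd300a (18.3-fold, 13.7 to 24.1) and Cd300lf (14.8-fold), and Elmo1 (10.6-fold), which with Dock1 switches on Rac for engulfment. In other macrophage nuclei 16 of 41 were higher, against 24.4% of genes, led by Cd300lf (27.1-fold), the phosphatidylserine receptor Havcr2 (21.7-fold) and Elmo1 (19.5-fold). The complement opsonin gene C1qb stood at 144 CPM in Kupffer and 97.0 CPM in other macrophage nuclei, against 42.8 CPM in free RNA, and Sirpa, the receptor of the do-not-eat-me signal Cd47, at 306 and 439.5 CPM against 51.3 CPM. C1qa and C1qc were not 2-fold higher than free RNA in either macrophage class. Cd14 and Calr were lower in both by the rule with the interval. Nr1h3, a nuclear receptor for oxysterols, stood at 169 CPM (133 to 213) in Kupffer and 49.5 CPM (36.4 to 65.9) in other macrophage nuclei, against 52.3 CPM in free RNA.

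In endothelial nuclei 10 of 41 were higher, against 22.0% of genes, led by Elmo1 (15.2-fold), Stab2 (12.6-fold) and Itgb3 (10.1-fold), the integrin chain that pairs with Itgav to bind Mfge8. Stellate nuclei had 6 of 41 against 19.3%, led by Gulp1, an engulfment adaptor, at 24.4-fold, Itgb3 at 5.11-fold and Dock1 at 3.70-fold. Fibroblast nuclei had 8 of 41 against 24.8%, led by Gulp1 (44.2-fold), the scavenger receptor Olr1 (24 UMIs) and Megf10 (7.53-fold), a receptor for dead cells known from astrocytes. Itgb5, the other integrin chain for Mfge8, stood at 560.2 CPM (560.15) in fibroblast and 365 CPM (364.7) in other macrophage nuclei, against 76.1 CPM in free RNA. Tumour nuclei had 5 of 41 against 28.6%, led by Megf10 (5.05-fold), Pparg (2.81-fold) and Ptk2 (2.54-fold). Lower by the rule with the interval were 4 of 41 in other macrophage nuclei against 7.06% of genes, 12 in endothelial against 14.4%, 10 in stellate against 12.8%, 12 in fibroblast against 15.2%, 15 in tumour against 18.8% and 19 in hepatocyte nuclei against 28.0%. Of the list 13 of 40 were at least 2-fold higher in tumour than in hepatocyte nuclei, against 25.9% of genes, and 5 lower, against 13.7%. For levels above free RNA, hepatocyte nuclei had 4 of 41 against 20.3%, led by Dock1 (3.65-fold), Havcr1 (2.72-fold) and Scarf1 (2.57-fold). Calr, an eat-me signal, stood below free RNA in all 7 classes, at 136 to 209.8 CPM against 499 CPM.

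The genes whose levels followed each of the 8 most closely were taken by Pearson's r on log2(CPM + 1) over the 12 classes, among 12653 genes with at least 200 UMIs that are no gate marker. The points share 1 library and differ in depth, so r is a description. Timd4 was followed most closely by Klra2 (r = 0.96), Rnf121 (0.94) and Nfam1 (0.91), all highest in Kupffer nuclei. Mertk was followed by Itsn1 (0.91), Heatr5a (0.89) and Gm42917 (0.86), Axl by Ifi211 (0.91), Pla2g4a (0.88) and Nptn (0.88), and Stab1 by Map3k3 (0.91), Ndst1 (0.91) and Gm4258 (0.90). Gas6 was followed by Bst1 (0.93), Ptprf (0.90) and Myrf (0.87), Pros1 by Nrp1 (0.89), Fxyd5 (0.86) and Tnik (0.85), and Mfge8 by Ripor1 (0.89), Exoc6b (0.87) and Rnpepl1 (0.83). For Tyro3, on 62 UMIs, they were Cul5, Gtpbp8 and Mid1 (0.85, 0.85 and 0.82). Among the 8 genes the closest pair was Mertk and Timd4 (0.76), then Mertk and Axl (0.66).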

How the data were processed

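Single nuclei were profiled in 2 samples of 1 group of mouse liver with HCC. The deposited values are counts of UMIs per gene and barcode in a filtered and an unfiltered matrix, not normalized. Cell Ranger 5.0 and mm10 are named by the submitters' processing notes, and per the file headers software versions 5.0.0 and 4 wrote the filtered and unfiltered matrix. No entry that both matrices share differed. The sources used here do not give whether strand or introns entered the counting. Genes that overlap others may therefore hold their reads: Mertk overlaps the antisense gene Gm14011 over 2435 bases and the snoRNA Gm23172 over 124, Gas6 overlaps Tmem255b over 3100 bases and Stab1 overlaps Nt5dc2 over 112. The filtered matrix held 17169 barcodes and 95130408 UMIs, from 891 to 125991 per barcode.

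Barcodes under 500 UMIs, under 300 genes or over 5% mitochondrial UMIs were dropped, 758 in all. Nuclei of both tumour gates were 1 class, the Kupffer gate took precedence over the macrophage gate, and nuclei of several classes were left out, which also served against doublets. Erythroid (43 nuclei), neutrophil (5), plasma cell (5) and dendritic cell (2) gates were not used as classes. Free RNA came from uncalled barcodes with 500 to 849 UMIs, with a mean of 672 UMIs. A value was called past 2-fold with at least 20 UMIs over both sides. Intervals are exact, Poisson for levels and ratios and Clopper-Pearson for shares, and a count of 0 was given a limit of 3 counts. The intervals were tested on simulated Poisson counts with known folds. That is the form the intervals assume, so the test does not cover UMIs that cluster in single nuclei. The rule was to give all 8 genes in every class, by value or range. Of the list of 42 it took the 3 highest folds with at least 20 UMIs per class, given here for 7 classes. C1qa, C1qb, C1qc, Cd14, Sirpa, Nr1h3, Itgb5 and Calr were chosen after their values were seen. The genes, lists and markers were chosen with earlier results of these data known. The gate thresholds, the splits of classes, the haemoglobin measure, the rule for lower calls and the 3 alternatives named as added were chosen after seeing the data. With 1 matrix the labels' 2 samples could not be used as replicates. Sequences and positions are from RefSeq on GRCm38.p6 and the GENCODE annotation on GRCm38, where all 8 genes matched. Python 3.11.15, numpy 2.4.6, scipy 1.17.1, pandas 2.3.3, scanpy 1.11.5 and leidenalg 0.10.2 were used.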

Additional observations from a re-analysis of the deposited data

How the results depend on the processing

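The settings were run on 44 values past 2-fold: all with a UMI in 7 classes and in tumour over hepatocyte nuclei, and the calls of Gas6 in mesothelial and ductal nuclei and of Mertk and Axl in pericyte or smooth muscle nuclei. Other values of the 5 smaller classes, and Mfge8 in all nuclei, had no alternative run. Of the 44, 42 stayed past 2-fold with 4 markers per gate. Giving nuclei of several gates to the class with the larger share left 38. Free RNA from barcodes of 1 to 100 UMIs left 39. A minimum of 2000 UMIs left 43, at most 1% mitochondrial UMIs 41 and leaving out Scrublet calls 43. Having no minimum of UMIs over both sides cannot change a fold, so its 44 of 44 was fixed in advance. Classes from Leiden clusters gave 31 of 40, with no cluster named Kupffer and hence no Kupffer value. Of the alternatives added after seeing the data, a Kupffer gate without C6 and leaving out other macrophage nuclei with a Kupffer marker kept all 44, and counting nuclei of the tumour and ductal gates as tumour kept 43. The gate without C6 left 58 Kupffer nuclei in place of 87. The count above free RNA in tumour nuclei, 1 (Tyro3), was 0 with 4 markers, with nuclei of several gates, with free RNA of 1 to 100 UMIs, with clusters, with at most 1% mitochondrial UMIs, without Scrublet calls and with tumour and ductal nuclei. In stellate nuclei it was 1 in place of 3 with free RNA of 1 to 100 UMIs and with clusters. The count at least 2-fold lower in tumour than in hepatocyte nuclei was 1 (Pros1) in place of 0 with at most 1% mitochondrial UMIs, without Scrublet calls and with tumour and ductal nuclei. With clusters, Tyro3 in other macrophage nuclei was 1.14-fold free RNA in place of 0, and Timd4 in endothelial nuclei 3.07-fold in place of 0.175-fold, where 1 of the endothelial clusters held 41.1% endothelial and 37.2% Kupffer gate nuclei. The cause of these changes was not tested. Over all settings that gave it, Mertk in Kupffer nuclei ran from 16.6-fold to 30.9-fold above free RNA, Timd4 from 19.96-fold to 34.8-fold and Axl from 4.06-fold to 5.62-fold, Stab1 in endothelial nuclei from 4.07-fold to 8.29-fold, Mertk there from 2.03-fold to 5.71-fold and Pros1 there from 1.59-fold to 2.63-fold. Gas6 ran from 3.85-fold to 5.32-fold in mesothelial and from 2.17-fold to 3.39-fold in ductal nuclei, and Mertk in pericyte or smooth muscle nuclei from 2.03-fold to 4.06-fold.

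No paired analysis was possible because no barcode names its sample, and leaving out either sample was not run for that reason. No interval covers differences between animals. Depth limits the small classes most: 3 counts are 6.96 CPM in Kupffer, 17.7 CPM in mesothelial and 39.2 CPM in B cell nuclei.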
